A study of Drosophila melanogaster with 6 samples.

Results

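CG15828, LpR1, LpR2, Karl, NLaz and GLaz encode a lipid transfer particle, a pair of lipoprotein receptors and the lipocalins of Drosophila melanogaster. They were found by their symbols in the table of RNA counts, as 6 genes of 11621, and each carried 1 row. All 6 passed the filter on low counts. RNA came from the larval cuticle, a preparation of the body wall with its skeletal muscles from which the internal organs had been removed. Control larvae were w1118 and were collected 7 days after egg laying. Tumour-bearing larvae were collected at 10 days and carried y, w and ey-flp, an act5C>y+>GFP cassette, UAS-RasV12, and FRT82B with tub-gal80 opposite FRT82B with scrib1. The eyeless-driven flippase places the RasV12, scrib1 clones in the eye disc, so the tissue that was sequenced was not the tissue in which the clones were induced. Each group had 3 samples, each a pool of 40 cuticles according to the sample labels, while the study's methods give a different number. Age, genetic background and tumour differed together between the groups and cannot be told apart. Rearing temperature may be a further difference between them. The study reports that larvae of the tumour genotype were moved to warmer conditions part-way through development in at least some crosses. It does not state if this applied to the larvae that were sequenced. No source says that the samples of a group were separate cultures, and the p-values then reflect a spread between samples that could be technical.

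In insects, neutral lipids travel through the haemolymph in lipophorin, a lipoprotein built on the apolpp product (listed in the table as Rfabg). The lipid transfer particle encoded by CG15828, now named Apoltp, and the microsomal transfer protein Mtp load lipophorin, and LpR1 and LpR2, receptors of the low-density lipoprotein (LDL) receptor family, take part in lipid uptake into tissues. Lipocalins are small secreted proteins with a pocket for hydrophobic molecules, and NLaz and GLaz are the fly relatives of vertebrate apolipoprotein D. NLaz is induced through the JNK stress pathway and is known from neurons and fat body, and GLaz is known from glia.

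The samples held 62617114 to 84149121 counts. Of the 10074 genes that passed the filter, 46.8% differed between the groups and 23.8% were higher in tumour-bearing larvae at an adjusted p under 0.05 by edgeR's quasi-likelihood test with Benjamini-Hochberg adjustment. The median log2 fold change over these genes was 0.01. The composition factors that scale the libraries ran from 0.630 to 0.841 in control samples and from 1.33 to 1.44 in tumour-bearing samples. With the total count as the only scaling the median moved to 0.94, and directions that turn under it are named where they occur. The labelled tissue was checked with 11 muscle markers, led in abundance by Act57B, and 11 epidermis markers, led by Lcp1. Their summed counts per unit of scaled library size (CPM) were 39073 to 162855 for muscle and 142545 to 236113 for epidermis in controls, and 12384 to 18228 and 1449 to 1567 in tumour-bearing larvae. Of these markers 7 and 6 fell, with median log2 fold changes of −3.31 and −5.52, and 4 and 5 did not pass the test. The most abundant epidermis markers in controls were the cuticle protein genes Lcp1, Lcp2, Lcp3 and Lcp4. The epidermis median is the value of ple, which did not pass, and neither did grh (−0.39) or knk (−0.18). Among the muscle markers Mef2 (−0.79), sls (−1.04) and Act87E (0.06) did not pass. In bulk RNA, fewer cells of a type and less RNA per cell cannot be told apart.

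CG15828, LpR1, LpR2 and Karl rose in tumour-bearing larvae, by 4.09 to 22.1 times, and neither NLaz nor GLaz passed the test. The same 4 genes had all tumour-bearing samples above all controls, a pattern seen in 31.9% of all genes tested. GLaz alone had all tumour-bearing samples below all controls, as 29.6% of genes did, and the groups of NLaz overlapped. The count of 4 in 6 stands beside 23.8% of all genes called higher.

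**Figure D1:**
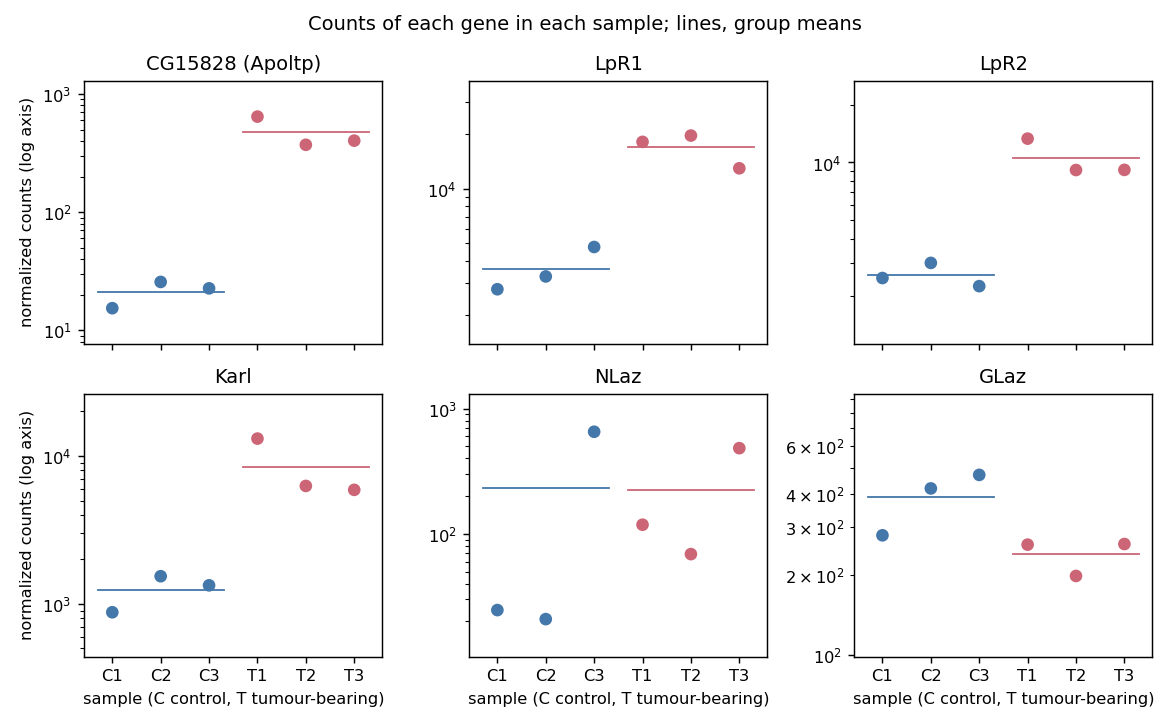
Normalized counts of the 6 genes in each control (C) and tumour-bearing (T) sample, on log axes whose range differs between panels, with lines at the group means. The tumour-bearing samples lie above the controls for CG15828, LpR1, LpR2 and Karl, below them for GLaz, and among them for NLaz, where control 3 stands at 654.

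CG15828 lies on chromosome 2L at 9634179 to 9656026 on the plus strand of BDGP6, with 13330 bases of exon in 1 transcript. Its normalized counts, the counts after scaling for library size and composition, were 15.4, 25.7 and 22.6 in controls against 643, 371 and 402 in tumour-bearing larvae. The groups were far apart, and tumour-bearing replicate 1 was the highest. The means of 21.2 ± 5.28 and 472 ± 149 (SD, n = 3) gave a log2 fold change of 4.47 (SE 0.36, 95% interval 3.60 to 5.33, adjusted p = 0.000771 by edgeR). Of the 6 genes this was the largest change, and it ranked 144 among all 10074. The control values rested on few reads, with raw counts of 10, 16 and 21. Their exact 95% Poisson intervals were 4.80 to 18.4, 9.15 to 26 and 13.0 to 32.1, which cover counting error only, and the lowest tumour-bearing count of 404 had an interval of 366 to 445.

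The other lipoprotein genes did not share one pattern. Rfabg, the structural protein of lipophorin, had normalized counts of 123, 594.8 and 555 in controls against 744, 226 and 498 in tumour-bearing larvae. These values overlapped, and the log2 fold change was 0.20 (SE 0.68, adjusted p = 0.821 by edgeR). Mtp, which loads lipid onto the nascent particle, had a log2 fold change of 0.49 (SE 0.22) and an adjusted p of 0.113 by edgeR. cv-d, a lipoprotein of the vitellogenin type known from BMP signalling in the wing, rose by 2.09 (SE 0.33, adjusted p = 0.00475 by edgeR). Of the 4 lipoprotein genes 2 rose and none fell, with a median of 1.29.

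The level of CG15828 relative to Rfabg was compared within each sample, per length of exon. The ratio was 0.110, 0.0381 and 0.0360 in controls against 0.763, 1.45 and 0.714 in tumour-bearing larvae. It was thus higher in every tumour-bearing sample, with means of 0.0615 ± 0.0423 and 0.975 ± 0.411 (SD, n = 3). The ratio was chosen after its values were seen and was given no test.

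LpR1 and LpR2 lie next to each other on the minus strand of chromosome 3R, at 25741348 to 25763105 and 25698727 to 25740465 of BDGP6, with 882 bases and no annotated gene between them. LpR1 has 10 annotated transcripts and LpR2 has 9. They are paralogues, and how reads matching both were assigned is not given in the sources used here.

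LpR1 had normalized counts of 2784, 3276 and 4763 in controls against 18129, 19645 and 12955 in tumour-bearing larvae. Every tumour-bearing sample was above every control, and control 3 was the highest of its group. The means were 3607 ± 1030 and 16910 ± 3508 (SD, n = 3). LpR1 rose by 2.23 on the log2 scale (SE 0.27, 95% interval 1.57 to 2.89, adjusted p = 0.00207 by edgeR), which is 4.68 times.

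LpR2 had normalized counts of 2490.1, 2987 and 2258 in controls against 13324, 9133 and 9150.5 in tumour-bearing larvae. The groups did not overlap, and replicate 1 was the highest of the tumour-bearing samples. The means were 2578 ± 372 and 10536 ± 2415 (SD, n = 3). LpR2 rose by 2.03 (SE 0.21, 95% interval 1.53 to 2.53, adjusted p = 0.00126 by edgeR), which is 4.09 times.

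The intervals of the LpR1 and LpR2 changes overlapped for most of their length. Per exon length, the ratio of LpR1 to LpR2 was 0.928, 0.910 and 1.75 in controls against 1.13, 1.79 and 1.18 in tumour-bearing larvae. The groups overlapped, and 1 sample of each stood above the rest of its group, with means of 1.20 ± 0.480 and 1.36 ± 0.366 (SD, n = 3). This ratio too was chosen after its values were seen and carries no test.

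Of the 8 LDL receptor family genes, LpR1 and LpR2 were those that passed the test as higher. LRP1 (log2 fold change −1.50, SE 0.39), arr, a Wingless co-receptor (−1.28, SE 0.21), and cue (−0.65, SE 0.09) fell, with adjusted p-values of 0.0245, 0.00486 and 0.00348 by edgeR. With total counts as the only scaling none of these was called, and cue had a log2 fold change of 0.28. The call of LRP1 was also lost without any one of the tumour-bearing samples. mgl, the megalin relative, had a log2 fold change of −0.42 (adjusted p = 0.413 by edgeR), and 0.57 with total counts as the only scaling. yl, the yolk protein receptor of the oocyte, did not pass the test either. CG8909 (Lrp4) had a log2 fold change of 0.86 (SE 0.30) and groups without overlap, with an adjusted p of 0.0559 by edgeR. The count of family genes called higher was 3 with upper-quartile factors, with total counts as the only scaling and with DESeq2. It was also 3 when at least 10 counts in every sample were required. The median of the family was −0.54.

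Karl lies on the X chromosome at 11787381 to 11792253 on the plus strand. Its normalized counts were 878, 1539 and 1335 in controls against 13114, 6275 and 5904 in tumour-bearing larvae. All tumour-bearing samples were higher, and replicate 1 lay 1.11 above the mean of the others of its group on the log2 scale. The means were 1251 ± 338 and 8431 ± 4060 (SD, n = 3). Karl rose by 2.75 (SE 0.40, 95% interval 1.76 to 3.74, adjusted p = 0.00375 by edgeR), which is 6.74 times. Without tumour-bearing replicate 1 the log2 fold change was 2.28. Karl shares 661 exon bases with asRNA:CR44962 on the opposite strand, and the library kit did not mark strand, so reads of the pair cannot be told apart there.

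NLaz lies on chromosome 2L at 1359837 to 1361821 on the minus strand. Its normalized counts were 24.6, 20.8 and 654 in controls against 118, 68.9 and 484 in tumour-bearing larvae. Control 3 was the highest of all 6 samples, control 1 and control 2 the lowest, and tumour-bearing replicate 3 stood well above the rest of its group. The log2 fold change was −0.07 (SE 1.46, 95% interval −3.64 to 3.50, adjusted p = 0.973 by edgeR), an interval that holds the estimates of the other genes of the 6 except CG15828. Without control 3 it was 3.29 (SE 1.04, adjusted p = 0.0448 by edgeR), and it was above 0 with upper-quartile or total-count scaling.

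Counting error was small against these differences. The raw counts of NLaz were 16 (exact 95% Poisson interval 9.15 to 26), 13 (6.92 to 22.2) and 607 (559.7 to 657) in the control samples. Control 3 lay 4.79 above the mean of the other controls on the log2 scale, and 77 of the 10074 genes lay farther from theirs in that sample. Tumour-bearing replicate 3 lay 2.41 above its group, with 135 genes farther. No sample of the other 5 genes lay farther than 1.11 from the others of its group. The coefficient of variation among controls was 156% for NLaz and 14.4% to 28.6% for the rest. Control 3 also differed from the other controls in its markers. Its summed CPM were 39073 for muscle, against 99598 and 162855 in control 1 and control 2. For epidermis they were 142545, against 219132 and 236113. Single epidermis markers differed far more than these sums. In control 1, control 2 and control 3, ple had normalized counts of 424.5, 849.8 and 1009800. Ddc had 59444, 14072 and 225550 in the same order. Lcp65Ad went the other way, with 3891, 6354 and 196. How these differences bear on NLaz was not tested.

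The genes whose log2 normalized counts followed NLaz most closely over the 6 samples were Eaat1, fax and miple2, with Pearson r of 0.991, 0.983 and 0.981. Eaat1, a glutamate transporter that is also one of the glia markers, had normalized counts of 122, 99.4 and 282 in controls against 172, 149 and 243 in tumour-bearing larvae. fax, a gene of axon development, had 3385, 3195 and 13486 against 8758, 6068 and 13394. Each was highest in replicate 3 of both groups, as NLaz was, and 15 genes of 8386 compared had an r above 0.95 with NLaz. These correlations are descriptions over 6 samples that share the split between groups.

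**Figure D2:**
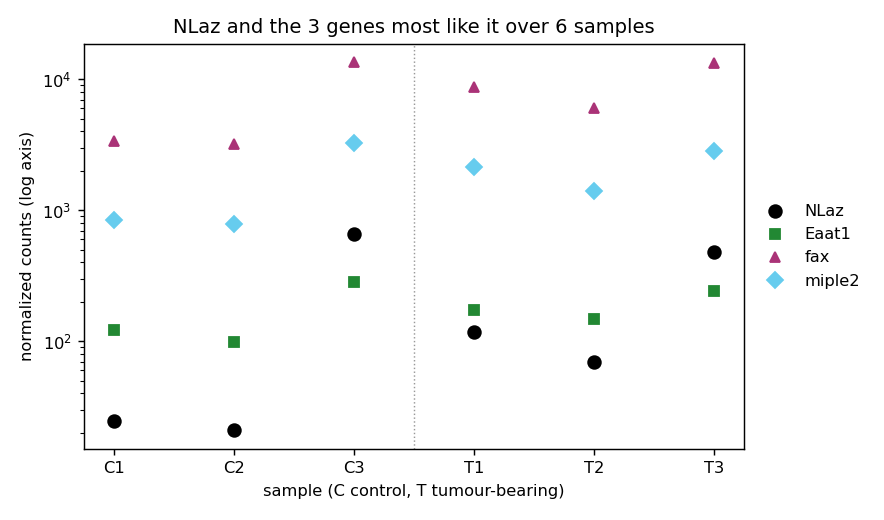
Normalized counts (log axis) of NLaz, Eaat1, fax and miple2 in the 3 control (C) and 3 tumour-bearing (T) samples. In each group replicate 3 is the highest for the plotted genes, with NLaz at 654 and 484.

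Markers of the tissues from which the apolipoprotein D relatives are known were set beside these values. The summed CPM of 8 glia markers, led by loco, were 272, 222 and 349 in controls against 175, 214 and 238 in tumour-bearing larvae, highest in replicate 3 of each group. The single glia markers did not share this order. Among controls, loco, Eaat1 and gcm were highest in control 3, and moody, wrapper and alrm lay between the others there. Control 3 was the lowest for repo (135, 188 and 110 normalized counts) and nrv2 (3190, 3717 and 2746). Those of 7 neuron markers, led by elav, were 47.2, 54.7 and 25.6 against 68.4, 82.1 and 66.4, lowest in replicate 3 of each group. Those of 8 fat body markers other than CG15828, led by Cyp4p1, were 59.3, 138 and 242 against 284, 119 and 118, so that control 3 was the highest control. No neuron or fat body marker was at 0 in any sample, 1 glia marker was at 0 in tumour-bearing replicate 2, and their part in the NLaz values was not tested.

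GLaz lies on chromosome 2R at 13163959 to 13168032 on the minus strand. Its normalized counts were 279.9, 418 and 469.9 in controls against 258, 198 and 259.8 in tumour-bearing larvae. The groups did not overlap, although control 1 was close to the highest tumour-bearing samples. The means were 389 ± 98.3 and 239 ± 35.5 (SD, n = 3), and the log2 fold change of −0.71 (SE 0.25, 95% interval −1.32 to −0.10) had an adjusted p of 0.0602 by edgeR. DESeq2 gave −0.73 with an adjusted p of 0.0197, and with total counts as the only scaling the value was 0.22. Of the 3 lipocalins 1 rose and none fell, with a median of −0.07.

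Levels can be compared between genes per length of exon, as RPKM, the count per exon length and scaled library size. In the control samples LpR1 had 7.13 ± 2.04, LpR2 6.14 ± 0.886, Karl 6.01 ± 1.63, GLaz 4.20 ± 1.06 and NLaz 2.66 ± 4.16 RPKM (SD, n = 3). Neighbours in this order overlapped in their samples. CG15828 was far below, at 0.0209 ± 0.00519 RPKM, and did not overlap with NLaz.

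In the tumour-bearing samples the order began with Karl at 40.5 ± 19.5, LpR1 at 33.4 ± 6.93 and LpR2 at 25.1 ± 5.75 RPKM, and these overlapped. GLaz at 2.57 ± 0.384 and NLaz at 2.55 ± 2.59 RPKM came next, apart from the receptors and Karl but not from each other. CG15828 was still the lowest, at 0.464 ± 0.146 RPKM, with its highest sample of 0.632 under the lowest NLaz sample of 0.786.

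Karl and GLaz moved apart. Within a sample and per exon length, the ratio of Karl to GLaz was 1.40, 1.64 and 1.26 in controls against 22.6, 14.1 and 10.1 in tumour-bearing larvae. Karl was above GLaz in every control sample and far above it in every tumour-bearing sample. The ratio was chosen after its values were seen and has no test.

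**Figure D3:**
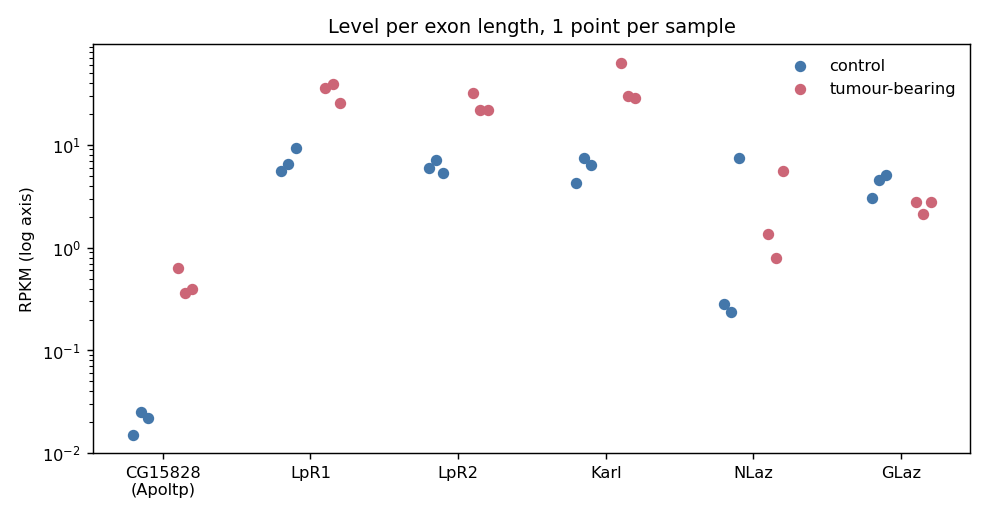
RPKM (log axis) of each gene, with 1 point per sample, in control and tumour-bearing larvae. LpR1, LpR2 and Karl move from 4.22 to 9.41 in controls up to 21.7 to 63, and CG15828 stays the lowest at 0.365 to 0.632.

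The 4 genes that rose also followed each other over the samples. Pearson r of log2 normalized counts was 0.943 for LpR1 with LpR2 and 0.991 for CG15828 with LpR2, and the other pairs of these 4 lay between. NLaz had an r of 0.139 to 0.383 with the other 5 genes, and GLaz had −0.754 to −0.641 with the 4 that rose. These correlations, over 6 points, include the difference between the groups.

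The genes most like each of the 4 were of several kinds. CG15828 was followed by CG14741 (ATP8B, a phospholipid flippase, r = 0.999), and 958 genes had an r above 0.95 with it. LpR1 was followed by CG5626 (Tsen54), CG12105 and drpr, the engulfment receptor Draper, each with an r of 0.998. LpR2 was followed by CG6171 and by CG9510 and CG9515 (r = 0.999), a pair with identical counts and so 1 measurement. Karl was followed by CG14526 (Nepl21, r = 0.999), BM-40-SPARC, a basement membrane protein (r = 0.998), and CG6310 (r = 0.998). GLaz was followed by CG30185 (AIMP3, r = 0.992), CSN5, a subunit of the COP9 signalosome (r = 0.991), and CG3862 (r = 0.989).

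Haemocyte markers moved the same way as the 4 genes that rose. Of 11 markers, 9 rose and none fell, with a median of 1.86. Their summed CPM, led by Hml, were 697, 1294 and 601 in controls against 4225, 2349 and 1615 in tumour-bearing larvae, and no marker was at 0 in any sample. Replicate 1 was the highest tumour-bearing sample for the sum of these markers, as it was for CG15828, LpR2 and Karl. Of the single markers, lz was highest in replicate 2. The feature was not particular to haemocyte markers. The summed CPM of the fat body markers without CG15828 were 284, 119 and 118 in tumour-bearing larvae, also highest in replicate 1.

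Each gene was therefore also set against the haemocyte markers within the sample, a measure chosen after the values were seen. The marker counts include proPO45 (PPO2), whose log2 fold change of −1.40 (adjusted p = 0.139 by edgeR) was opposite to that of most of the markers. Its raw counts were 10004, 19897 and 5293 in controls against 15457, 5299 and 5646 in tumour-bearing larvae. Per 1000 haemocyte marker counts, CG15828 had 0.289, 0.260 and 0.494 counts in controls against 2.0, 2.07 and 3.27 in tumour-bearing larvae. Karl had 16.5, 15.6 and 29.1 against 40.7, 35.0 and 47.9. For both genes the groups did not overlap on this measure either.

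LpR1 had 52.4, 33.2 and 104 counts per 1000 haemocyte marker counts in controls against 56.3, 109.7 and 105 in tumour-bearing larvae. LpR2 had 46.8, 30.3 and 49.3 against 41.4, 51.0 and 74.3. The groups of the receptors overlapped on this measure. GLaz had 5.26, 4.24 and 10.3 in controls against 0.802, 1.10 and 2.11 in tumour-bearing larvae, lower and without overlap. NLaz had 0.463, 0.211 and 14.3 against 0.367, 0.385 and 3.93, and its groups overlapped. The part of haemocytes in these results was not tested.

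Fat body, the main source of lipophorin and Apoltp in larvae, had 8 markers in the table beside CG15828 itself, of which 1 rose, 1 fell and 6 did not pass the test, with a median of 0.10. Their summed CPM, given with NLaz, overlapped between the groups. Cyp4p1, the marker that rose, led that sum, and the other markers differed from it. Each of them was highest in replicate 1 among the tumour-bearing samples. Lsp1beta had normalized counts of 718, 1815 and 3127 in controls against 5535, 405 and 622 in tumour-bearing larvae. Lsp2 had 898, 1999 and 4131 against 5541, 770 and 668. Among oenocyte markers, led by Cyp4g1, 1 of 9 rose and 1 fell. Among nephrocyte markers, led by CG32702 (Cubn), 1 of 5 tested rose and none fell. Of tracheal markers, led by Gasp, 3 of 6 fell, and of imaginal disc and eye markers, led by hth, 1 of 8 tested rose and 2 fell. Of glia markers 1 of 6 tested rose and 1 fell, and of neuron markers 2 of 7 rose and none fell.

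The wider set of lipid genes gives the setting of the 6. Over 6 lists of lipid genes without them, 45 genes were tested, of which 17 rose, 8 fell and 20 did not pass, with a median of 0.26. Of all genes tested, 23.8% were called higher and 46.8% in either direction. These shares also stand beside the counts of the lists below. Of these 45 genes, 9 had a log2 fold change above that of LpR2.

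Of 13 receptors of the CD36 family, which bind lipids and lipoproteins at the cell surface, 6 rose and 2 fell, with a median of 1.03. Snmp2 had normalized counts of 272, 266 and 487 in controls against 7750, 8174 and 6537 in tumour-bearing larvae, a log2 fold change of 4.45 (SE 0.30, adjusted p = 0.000559 by edgeR). CG1887 (dsb) rose by 5.30 (SE 0.95, adjusted p = 0.00673 by edgeR) from few control counts. Snmp1, known from pheromone-sensing neurons, fell by 2.39 (SE 0.20, adjusted p = 0.000857 by edgeR). CG40006 had a log2 fold change of −0.58 (SE 0.12, adjusted p = 0.0120 by edgeR), which became 0.35 with total counts as the only scaling.

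Of 8 tested genes of sterol transport, 3 rose and 1 fell, with a median of 0.08. Npc2h (5.07, SE 0.92, adjusted p = 0.00671 by edgeR) and Npc2g (2.91, SE 0.68, adjusted p = 0.0170 by edgeR), relatives of the lysosomal cholesterol carrier NPC2, had the largest log2 fold changes. Npc2h had raw counts of only 1, 3 and 0 in controls. The call of Npc2g was lost without control 1 or without control 2. Osbp, an oxysterol-binding protein, had −0.61 (SE 0.10, adjusted p = 0.00574 by edgeR), and 0.32 with total counts as the only scaling.

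Of 7 tested genes of fatty acid uptake and binding, 1 rose and 2 fell, with a median of −0.09. bgm, an acyl-CoA synthetase, rose by 1.57 (SE 0.22, adjusted p = 0.00336 by edgeR). The acyl-CoA binding proteins Dbi (Acbp2) and CG8498 (Acbp1) had log2 fold changes of −2.39 and −0.97, with adjusted p-values of 0.0115 and 0.00286 by edgeR. The call of Dbi was lost without tumour-bearing replicate 2 and that of CG8498 with total counts as the only scaling.

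Of 8 tested lipases and lipid droplet coat proteins, 6 rose and none fell, with a median of 1.22. Lip4, a predicted lipase, had normalized counts of 44.6, 68.9 and 56.1 in controls against 7268, 9921 and 5883 in tumour-bearing larvae. The groups lay far apart, and the log2 fold change of 7.09 (SE 0.31, adjusted p = 0.000307 by edgeR) was above that of every gene of the 6. dob, a lipase related to brummer, rose by 3.30 (SE 0.57, adjusted p = 0.00603 by edgeR) from raw control counts of 17, 6 and 6.

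NLaz is a known JNK target, and other JNK-regulated genes were therefore listed. Of 8 genes 5 rose and none fell, with a median of 1.27. Mmp1 (0.37, SE 0.62), Ilp8 (−0.63, SE 0.45) and scaf (−2.27, SE 0.80) did not pass the test. Among those that rose was wgn (1.54), which encodes a receptor of the TNF relative Egr. The study names JNK signalling as downstream of this receptor, and had already reported the rise of wgn from these RNA data. Ets21C, a transcription factor of stress and tumour tissue, rose by 5.57 (SE 0.22, adjusted p = 0.000256 by edgeR), and upd3, a cytokine of the JAK/STAT pathway, rose by 4.29 (SE 0.52, adjusted p = 0.00200 by edgeR). Among the same samples NLaz had the log2 fold change of −0.07 given above.

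**Figure D4:**
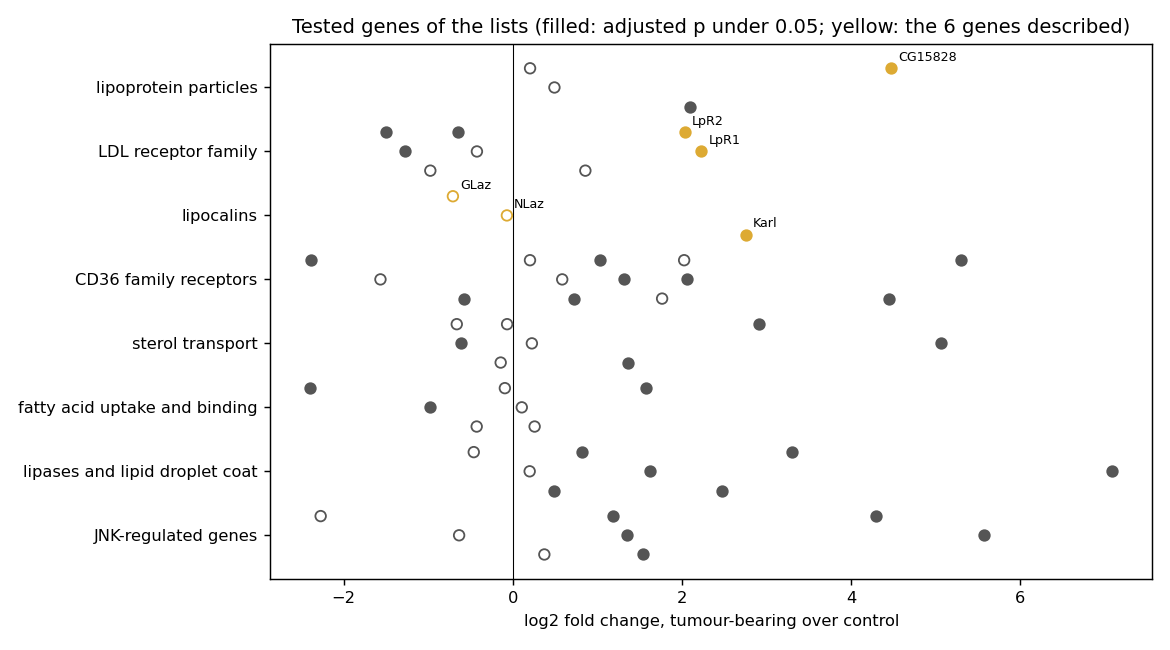
Log2 fold change of tumour-bearing over control larvae for the tested genes of each lipid list and of the JNK list. Filled points mark an adjusted p under 0.05 by edgeR, and yellow marks the 6 genes described. CG15828 at 4.47, Karl at 2.75, LpR1 at 2.23 and LpR2 at 2.03 lie to the right of their list medians, while GLaz at −0.71 lies to the left and moves to 0.22 with total counts as the only scaling.

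The calls of CG15828, LpR1, LpR2 and Karl held under all alternatives tried, with a highest adjusted p of 0.0219 by edgeR. Leaving out 1 sample at a time gave log2 fold changes of 4.17 to 4.61 for CG15828, 2.07 to 2.46 for LpR1, 1.82 to 2.14 for LpR2 and 2.28 to 2.95 for Karl. With total counts as the only scaling, and relative to the median shift of all genes, the values were 4.46, 2.18, 2.04 and 2.75. NLaz had −0.23 and GLaz −0.72 on that relative scale.

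**Figure D5:**
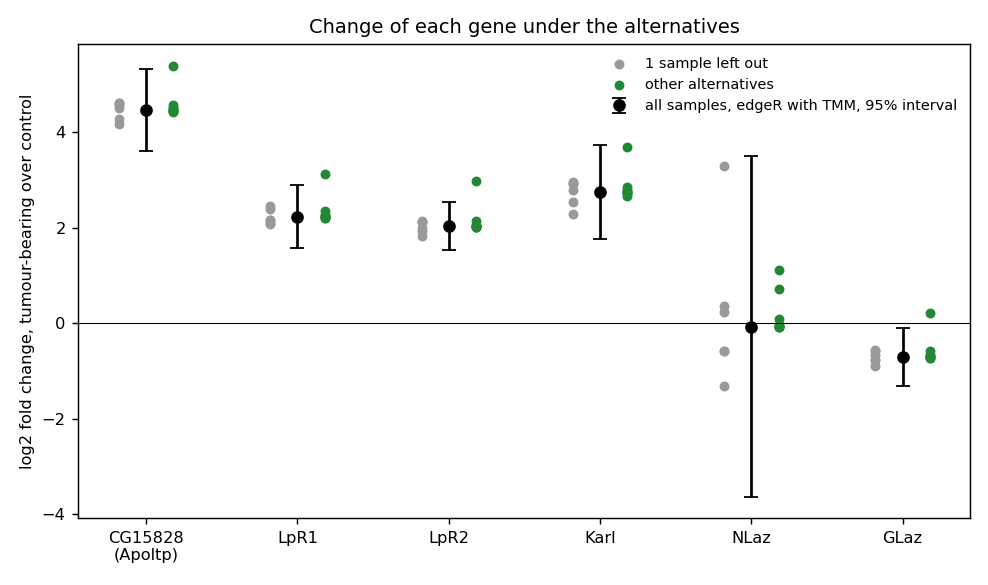
Log2 fold change of each gene under each alternative processing and with each sample left out, beside the edgeR value of all samples (black, with its 95% interval). The 4 genes that rose stay above 0, GLaz lies below it except at 0.22 with total counts as the only scaling, and NLaz spans −1.32 to 3.29.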

How the data were processed

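RNA from larval cuticles was sequenced in 3 control and 3 tumour-bearing samples, grouped by the sample labels. Every test used the raw counts per sample of the 11621 genes in the table the authors deposited. The deposited table also holds the authors' normalized signal, the count divided by 1 constant per sample, and their fold changes and p-values of this comparison, none of which were used. Tools named in the submitters' processing notes are TopHat, Bowtie, HTSeq, bcl2fastq, FastQC and DESeq2, with BDGP6 as the build. Versions and counting settings are not given in the sources used here. The labels name Trizol and the series text a column kit for extraction, and each sample has its own sequencing lane.

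edgeR 4.0.16 in R 4.3.3 was run on the counts with filterByExpr, TMM factors and the robust quasi-likelihood test over 10074 genes, with Benjamini-Hochberg adjustment and a threshold of 0.05. Normalized counts are counts over TMM-scaled library sizes times their mean. RPKM uses the summed exon length in Ensembl release 115, where 11181 identifiers were found. The fits were tested on simulated data. The genes and lists were chosen with earlier results of these data known. The 6 genes were named in full, with the 2 largest changes in each direction per list, the most abundant marker of each marker list, and the 3 genes most correlated with each of the 6, among tested genes whose mean normalized count reached 100.0, on log2 values after adding 1 count. cue was named after its value was seen, to complete a count. Alternatives were DESeq2 1.42.0, other scalings, other filters, the longest transcript, a replicate block, leaving out the 20 most abundant genes, and leaving out each sample. Neither protein nor promoter sequence was used here. Some genes correlated with CG15828 are not reported here.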

Additional observations from a re-analysis of the deposited data

How the results depend on the processing

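CG15828, LpR1, LpR2 and Karl kept direction and call under every alternative run. With total counts as the only scaling, 6189 genes were called higher and 695 lower over the whole table, NLaz had a log2 fold change of 0.71 and GLaz 0.22. Under it the calls lower were 0 for the LDL receptor family, 1 for the CD36 family, 0 for sterol transport and 1 for fatty acid uptake and binding, and the calls higher were 5 for sterol transport and 4 for fatty acid uptake and binding. The mean RPKM under it was 0.0151 in control and 0.645 in tumour-bearing samples for CG15828, 46.1 in tumour-bearing samples for LpR1, 4.40 and 34.8 for LpR2, 4.35 in controls for Karl, and 3.08 and 3.58 for GLaz. The longest transcript gave 7.38 RPKM for LpR2 in controls. Upper-quartile factors moved the median of all genes to 0.13 and gave 0.078 for NLaz. DESeq2 called 1 of the 6 genes lower, GLaz at −0.73, with 1 lipocalin and 1 JNK-regulated gene lower.

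Leaving out 1 sample at a time, the genes called lower over the table ran from 1380, without tumour-bearing replicate 2, to 2548. NLaz ran from −1.32 to 3.29 and GLaz from −0.90 to −0.56, with an adjusted p of 0.0348 without control 1. Called lower were 0 to 1 of the 6 genes, 0 to 1 lipocalin, 0 to 1 JNK-regulated gene, 1 to 2 genes of sterol transport and 1 to 3 of fatty acid uptake and binding. Called higher were 1 to 2 lipocalins, the highest without control 3.

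Over all genes tested, the correlations of same-numbered deviations were −0.05, 0.06 and 0.11. Those of differently numbered samples ran from −0.13 to 0.14. With 3 samples in a group, such values cannot exclude that same-numbered samples share a batch. With the replicate block, NLaz had a log2 fold change of 1.11 (adjusted p = 0.246), and 1907 genes were called higher and 1665 lower. The 4 genes that rose stayed called under the block. Among the 6 genes, raw counts were lowest in the controls of CG15828 and in control 1 and control 2 of NLaz.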
